A study of Mus musculus with 18 samples.

Results

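Peroxisomal fatty acid oxidation was followed in mouse liver through 9 genes, Ehhadh, Hsd17b4, Acaa1a, Acaa1b, Ech1, Abcd2, Abcd3, Crot and Pex11a. They were taken by symbol from a table of 19057 genes, and all 9 were found. The table gives RPKM (reads per kilobase of transcript, scaled to the mapped reads of the library) for 18 liver RNA sequencing libraries of ICR mice aged 10 weeks, in 6 groups of 3. The study was about semen quality in mice made diabetic with streptozotocin (STZ), a toxin of pancreatic beta cells, and about gut microbiota from donors given alginate oligosaccharide (AOS), a product of seaweed alginate. Liver RNA was one of its other readouts. Con mice had regular diet and saline. STZ mice had a single STZ injection. A10-FMT mice had STZ followed by daily oral transplants of small intestinal content, taken from donors that had received 10 mg/kg AOS. For Con-FMT mice, also given STZ, the donors had received water. All mice of these 4 groups were male, and the donor content was pooled, so each transplant group had a single inoculum. The AOS group had AOS at 10 mg/kg without STZ, and the STZ+AOS group had STZ with AOS at 10 mg/kg. These last 2 groups are known from the sample labels alone, and the route and duration of their AOS dosing are not given in the sources used here.

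Peroxisomes shorten very long-chain, branched and dicarboxylic fatty acids that mitochondria handle poorly, and pass the shortened products on. The transporters ABCD2 and ABCD3 bring acyl-CoAs in, the bifunctional enzymes EHHADH and HSD17B4 hydrate and dehydrogenate the unsaturated intermediate, and the thiolases ACAA1A and ACAA1B split off acetyl-CoA. ECH1 moves double bonds of unsaturated chains, CROT joins the shortened chains to carnitine for export, and PEX11A takes part in peroxisome growth and division. In rodent liver, many genes of the pathway are known targets of the fatty acid receptor PPARA, which is active in fasting and when insulin is low.

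The 9 genes lie on 7 chromosomes in the GRCm38 (mm10) annotation, all as protein-coding genes. Ehhadh is at chr16:21761287-21787807, Abcd2 at chr15:91145871-91191799, Abcd3 at chr3:121758774-121815302 and Crot at chr5:8966033-8997324. Ech1 (chr7:28825217-28832247) and Pex11a (chr7:79735957-79743131) share a chromosome but are far apart. The thiolase genes Acaa1b (chr9:119148023-119157093) and Acaa1a (chr9:119339676-119350299) are close neighbours on opposite strands.

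The thiolase pair matters for reading the values, since reads from one copy can map to the other. Their coding sequences were 1272 bases long and identical at 1228 bases (96.5%), with an unbroken identical run of 327 bases. Of all 50-base stretches of the coding sequence, 37.9% were the same in both genes. The most different 60 bases within 1 exon were in exon 6 (chr9:119346483-119346542 for Acaa1a and chr9:119151842-119151901 for Acaa1b, GRCm38). They are shown 5′ to 3′ in the direction of transcription, with the 11 differing bases in capitals:
Acaa1a: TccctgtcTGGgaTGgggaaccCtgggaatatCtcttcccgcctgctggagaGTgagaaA
Acaa1b: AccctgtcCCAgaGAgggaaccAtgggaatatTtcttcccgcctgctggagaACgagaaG
The other 7 genes shared 0 to 3.97% of their 50-base stretches with any other gene. The highest of these was Crot, whose shared stretches were those of the gene model Gm37153. Over whole transcripts, Acaa1a shared 35.1% of its 50-base stretches with other genes (34% with Acaa1b). For Acaa1b it was 46.2% (35.5% with Acaa1a), so some were shared beyond the pair. The Acaa1a and Acaa1b levels are therefore the ones that depend most on how the authors assigned reads.

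The 250 bases before each start site come from the RefSeq promoter table (GRCm38.p6). They are shown 5′ to 3′ on the gene's strand for Acaa1a and Acaa1b, which are near-identical in coding sequence. The deposited levels of the pair differed, and only Acaa1a was called after STZ, but the difference between their changes was not tested. The Acaa1a stretch is chr9:119341044-119341293 and the Acaa1b stretch chr9:119157094-119157343:
Acaa1a promoter: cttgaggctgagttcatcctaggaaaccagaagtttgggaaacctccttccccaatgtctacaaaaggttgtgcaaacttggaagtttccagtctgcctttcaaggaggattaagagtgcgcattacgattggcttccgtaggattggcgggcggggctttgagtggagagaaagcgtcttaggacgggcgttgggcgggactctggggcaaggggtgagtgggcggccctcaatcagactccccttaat
Acaa1b promoter: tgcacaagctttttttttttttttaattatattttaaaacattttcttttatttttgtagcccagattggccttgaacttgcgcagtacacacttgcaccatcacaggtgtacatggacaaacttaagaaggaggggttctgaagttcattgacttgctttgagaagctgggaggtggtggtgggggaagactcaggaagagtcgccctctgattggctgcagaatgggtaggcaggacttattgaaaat
The RefSeq start of Acaa1a lies inside the GENCODE span of the gene given above, whose first model starts further upstream. GC made up 53.6% of the Acaa1a stretch and 41.6% of the Acaa1b stretch. The promoter table held windows of 250 bases before and 50 after the start for Ehhadh, Acaa1a, Acaa1b, Pex11a, Abcd3 (2 windows), Crot and Ech1. None of these 8 windows held the nuclear receptor half-site AGGTCA on either strand, which 16.3% of 32851 mouse windows held. None held the PPAR element AGGTCANAGGTCA with 2 or fewer mismatches on either strand either, which 3.86% of all windows held. That element is a repeat of the half-site, so both searches read the same letters, and no match says only that they are not in these windows.

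The genes differed widely in level. In Con liver, Acaa1b had the highest mean at 313 ± 81.0 RPKM (SD, n = 3), followed by Ech1 at 189 ± 47.3 RPKM, Crot at 155 ± 4.59 RPKM, Hsd17b4 at 118 ± 9.91 RPKM and Abcd3 at 107 ± 11.5 RPKM. Acaa1a had 79.6 ± 10.8 RPKM, Ehhadh 59.4 ± 13.4 RPKM and Pex11a 26.6 ± 4.15 RPKM. Abcd2 was close to absent at 0.307 ± 0.12 RPKM. RPKM are divided by transcript length, so these levels can be set beside each other. Going down this order, the 3 Con mice overlapped between Acaa1b and Ech1, Ech1 and Crot, Hsd17b4 and Abcd3, and Acaa1a and Ehhadh. They did not overlap between Crot and Hsd17b4, Abcd3 and Acaa1a, Ehhadh and Pex11a, or Pex11a and Abcd2.

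**Figure D1:**
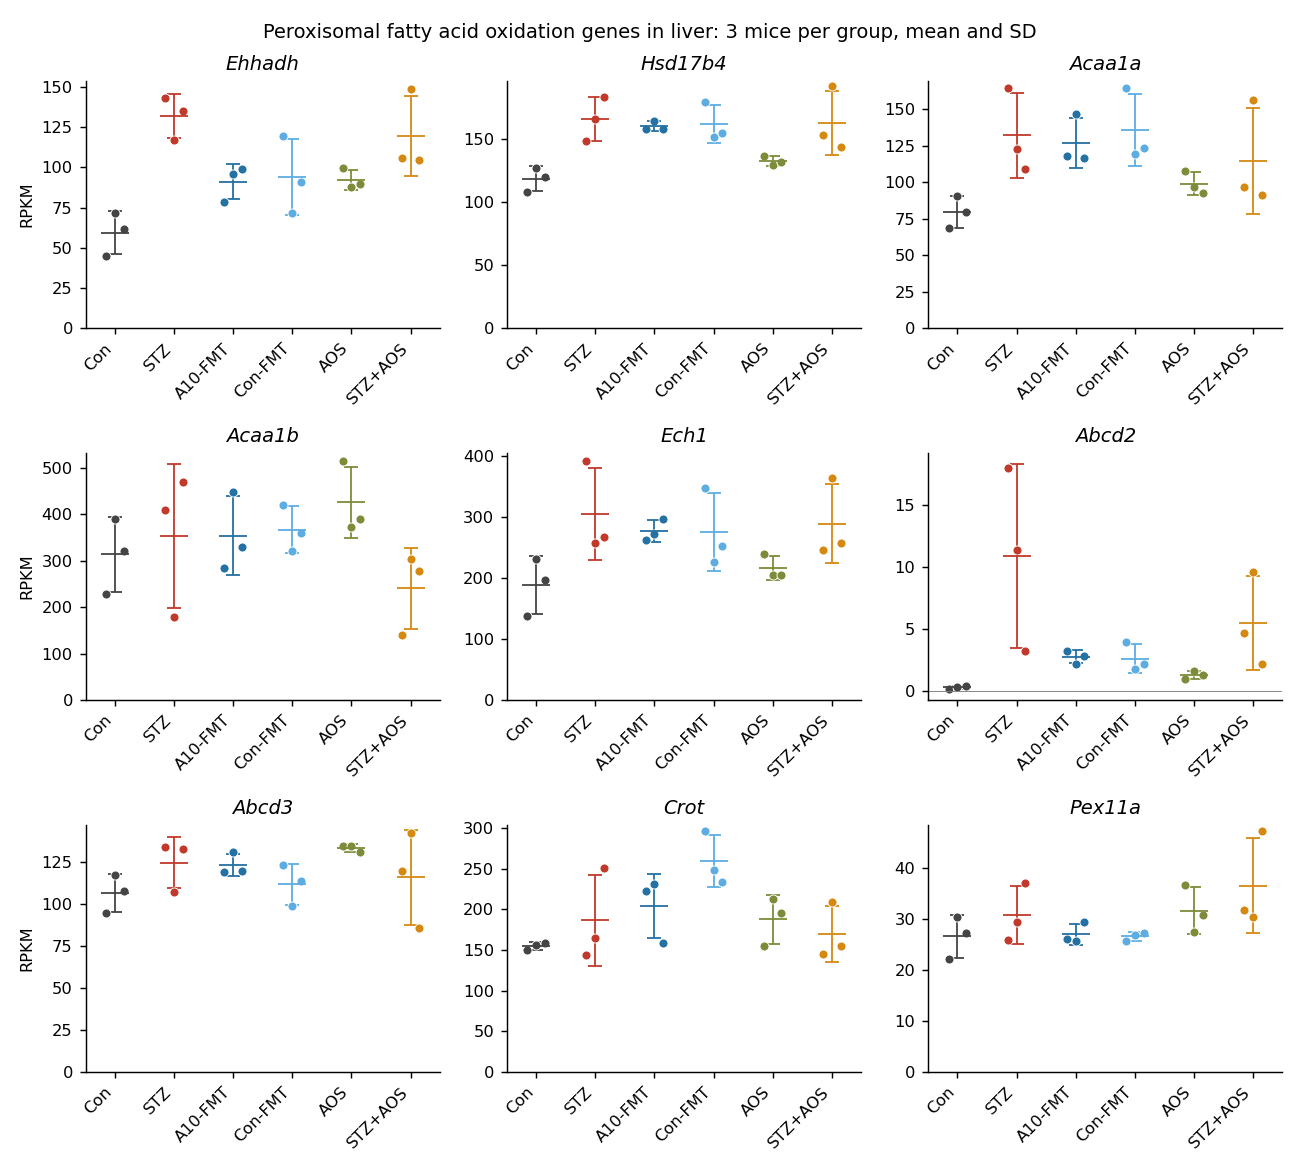
RPKM (vertical axes, each from 0) of the 9 genes in the 6 groups (horizontal axes), with a point per mouse, the mean as a horizontal line and the SD as a bar. Ehhadh was 45.1 to 71.6 in Con and 117 to 143 in STZ, Abcd2 was 0.19 to 0.43 in Con and 3.22 to 18.1 in STZ, and Pex11a and Abcd3 overlapped between these groups.

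The comparison of STZ with Con asked how diabetes changed the pathway. STZ increased 5 of the 9 genes, 1 transporter (Abcd2) and 4 enzymes (Ehhadh, Acaa1a, Ech1 and Hsd17b4), and decreased none. Of all 10602 genes tested, 33% were called higher and 5.52% lower, so an increase was common across the transcriptome. These 5 genes also had no overlap between the 3 STZ and 3 Con mice, as did 47.7% of all genes. The median change of the 9 genes was 0.48, against 0.213 for all genes. Acaa1b, Abcd3, Crot and Pex11a were not called. Calls are by limma on log2(RPKM + 1) at a Benjamini-Hochberg adjusted p under 0.05 over all genes tested.

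Abcd2, which transports very long-chain acyl-CoAs and is a transporter mainly of fat and brain, gave the largest change. The Con mice had 0.19, 0.3 and 0.43 RPKM, and the STZ mice 18.07, 11.44 and 3.22 RPKM. Every STZ mouse was above every Con mouse, while the STZ mice spread widely and mouse 3 was lowest. The group mean was 35.6 times that of Con, and the change was 2.94 ± 0.43 (SE) on the log2(RPKM + 1) scale (limma adjusted p = 0.000884). That scale understates the change of a gene this low in Con, and with 0.1 added in place of 1 the change was 4.49. All Con values were under 1 RPKM, so Abcd2 passed the filter on low values only through the other groups. The summed level of 5 adipocyte markers was 0.24 to 1.03 RPKM in Con and 0.46 to 1.11 RPKM in STZ, with Lep listed at 0 in all 18 libraries and Adipoq and Plin1 at 0.12 RPKM or less. None of the 5 passed the filter on low values.

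Abcd3, the main acyl-CoA transporter of liver peroxisomes, had 94.41, 117.33 and 107.89 RPKM in Con and 134.2, 106.97 and 132.7 RPKM in STZ. The groups overlapped through STZ mouse 2, and the change of 0.22 ± 0.13 was not called (adjusted p = 0.186). Abcd2 made up 0.284% ± 0.101 (SD, n = 3) of the summed RPKM of both transporters in Con and 7.97% ± 4.97 in STZ, so Abcd3 remained the more abundant of the pair.

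Ehhadh, the bifunctional enzyme that also serves dicarboxylic acids, had 45.13, 71.59 and 61.6 RPKM in Con and 143.33, 116.7 and 135.18 RPKM in STZ. No STZ value came near the Con range. Its mean went from 59.4 ± 13.4 to 132 ± 13.6 RPKM (SD, n = 3), a change of 1.15 ± 0.20 (adjusted p = 0.00203). Hsd17b4, the other bifunctional enzyme, which handles branched chains and bile acid precursors, had 107.62, 127.24 and 119.85 RPKM in Con and 147.96, 165.57 and 183.06 RPKM in STZ. Its change was 0.48 ± 0.11 (adjusted p = 0.00791), again with no overlap.

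Of the thiolases, Acaa1a was called and Acaa1b was not, and the difference between them was not tested. Acaa1a had 68.88, 90.57 and 79.21 RPKM in Con and 164.43, 122.87 and 108.81 RPKM in STZ, with no overlap and a change of 0.71 ± 0.18 (adjusted p = 0.0112). Acaa1b had 229.08, 390.54 and 320.54 RPKM in Con and 409.93, 178.04 and 470.36 RPKM in STZ. Its STZ mice lay on both sides of the Con range, with mouse 2 lowest, and its change was 0.09 ± 0.33 (adjusted p = 0.856). Acaa1b made up 79.4% ± 2.25 (SD, n = 3) of the summed RPKM of the pair in Con and 70.6% ± 11.04 in STZ, and the STZ mice had 71.4%, 59.2% and 81.2%. Ech1, the dienoyl-CoA isomerase, which is also found in mitochondria, had 138.38, 231.98 and 196.45 RPKM in Con and 392.93, 256.97 and 267.5 RPKM in STZ. The groups did not overlap, and the change was 0.70 ± 0.22 (adjusted p = 0.0311).

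Crot and Pex11a, which serve export and peroxisome number, were not called. Crot had 149.66, 156.61 and 158.34 RPKM in Con and 144.26, 164.57 and 250.3 RPKM in STZ, with mouse 3 far above the others, mouse 2 just above Con and mouse 1 below it (change 0.23 ± 0.20, adjusted p = 0.394). Pex11a had 22.09, 30.3 and 27.29 RPKM in Con and 25.95, 29.46 and 36.96 RPKM in STZ (change 0.20 ± 0.14, adjusted p = 0.259).

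How far these increases stand out depends on the scaling of the libraries. The RPKM of a library summed to 749557 to 806937 in Con and 631126 to 684659 in STZ, and the median change of all genes was 0.213, with 3502 genes called higher and 585 lower. Dividing each library by its median ratio to the average library brought that median to -0.0111, with 1480 genes higher and 1402 lower. Ehhadh (0.89 ± 0.17, adjusted p = 0.00477) and Abcd2 (2.80 ± 0.40, adjusted p = 0.0011) then remained called. Acaa1a (0.44, adjusted p = 0.052), Ech1 (0.43, adjusted p = 0.119) and Hsd17b4 (0.21, adjusted p = 0.165) were not, and Acaa1b, Abcd3, Crot and Pex11a turned below 0. Over 13 alternatives the adjusted p ran from 0.000641 to 0.00974 for Ehhadh, 1.01e-05 to 0.00951 for Abcd2, 0.0044 to 0.052 for Acaa1a, 0.00643 to 0.165 for Hsd17b4 and 0.0217 to 0.124 for Ech1. Ech1 was called in 6 of the 13, and was lost without Con mouse 1, Con mouse 3 or STZ mouse 1.

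**Figure D2:**
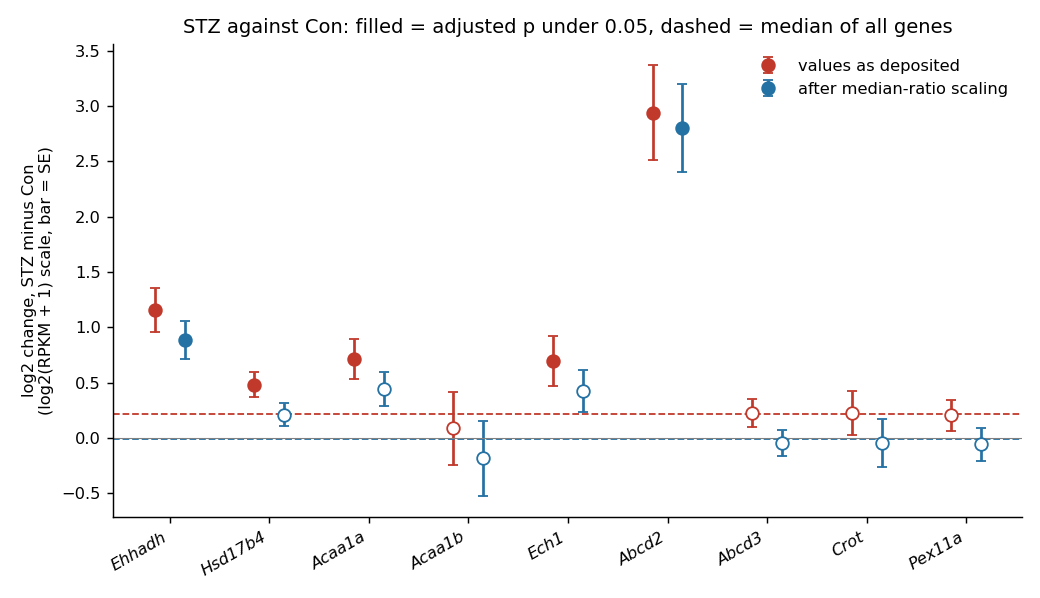
Log2 change of each gene, STZ minus Con, on the log2(RPKM + 1) scale (vertical axis) with its SE, for values as deposited and after median-ratio scaling, with filled points for an adjusted p under 0.05. The dashed lines are the medians of all genes (0.213 and -0.0111), and Ehhadh and Abcd2 are filled under both scalings.

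Markers of cell types, hepatocytes among them, were read in the same comparison, where 33% of all genes were called higher and 5.52% lower. The sums below are of deposited RPKM, without rescaling of the libraries. The summed level of 6 Kupffer cell markers was 52.8 to 82.2 RPKM in Con and 83.3 to 188 RPKM in STZ, with 2 called higher, and that of 5 stellate cell markers was 67.6 to 78.9 RPKM in Con and 106 to 126 RPKM in STZ, with 1 called higher. The 5 endothelial markers summed to 35.6 to 40.2 RPKM in Con and 38.4 to 50.5 RPKM in STZ, with 2 called higher. The 5 exocrine pancreas markers summed to 31.4 to 40.7 RPKM in Con and 2.96 to 8.86 RPKM in STZ, and 1 was called lower. The 5 hepatocyte markers summed to 36611 to 54743 RPKM in Con and 33957 to 47498 RPKM in STZ, with 2 called higher and 2 lower, and were abundant in every library, as the liver label asks. The 5 cholangiocyte markers (1 called lower) summed to 23.1 to 41.2 RPKM in Con and 21.3 to 41.25 RPKM in STZ. The 4 erythroid markers (1 called lower) summed to 1228 to 1971 RPKM and 456 to 1833 RPKM, and the 5 lymphocyte markers to 2.88 to 3.08 RPKM and 1.68 to 2.36 RPKM, without overlap. Of the lymphocyte markers and of the exocrine pancreas markers, 1 each passed the filter on low values, and the lymphocyte marker was not called. Their part in the gene changes was not tested. In bulk tissue, fewer cells of a type and less RNA per cell cannot be told apart.

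Other genes listed for the peroxisome changed in part. The list was set by gene symbol, and where the products lie in the cell was not checked here. Of 32 other peroxisomal lipid genes, 27 passed the filter on low values, of which 12 were called higher and 2 lower in STZ. Over all genes the shares were 33% higher and 5.52% lower. The list's median change was 0.368 against 0.213 for all genes. Its smallest adjusted p were those of Acot12, an acyl-CoA thioesterase (1.42 ± 0.14, adjusted p = 0.000223), and Slc27a2, which activates very long-chain fatty acids (1.20 ± 0.17, adjusted p = 0.000751). Next came Eci2, an enoyl-CoA isomerase (1.26 ± 0.19, adjusted p = 0.000909), and Nudt19, a CoA hydrolase (1.98 ± 0.30, adjusted p = 0.00105). Nudt7 and Scp2 were the 2 called lower, and are named here after their values were seen. Nudt7, a CoA hydrolase, went from 525 ± 19.2 to 105 ± 130 RPKM, and Scp2, a sterol carrier and thiolase, from 1534 ± 55.8 to 844 ± 449 RPKM.

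The next lists are likewise to be read beside 33% of all genes called higher and 5.52% lower. Of 15 peroxins, which build peroxisomes and import their proteins, 8 were called higher and 0 lower, among them Pex7, an import receptor (0.61 ± 0.14, adjusted p = 0.00653), and Pex14, part of the import pore (0.46 ± 0.11, adjusted p = 0.00867). All 17 genes of mitochondrial beta-oxidation were called higher, with a median change of 0.745 and Cpt1a, the gate of fatty acid entry into mitochondria, at 1.51 ± 0.23 (adjusted p = 0.00116). Of 17 tested PPARA targets outside the peroxisome, 10 were called higher and 1 lower. The latter, named for that reason, was Fabp1, a fatty acid binding protein (-1.52 ± 0.38, adjusted p = 0.0103). Cyp4a10 and Cyp4a14, fatty acid omega-hydroxylases whose dicarboxylic products peroxisomes shorten, went from 2.27 ± 0.852 to 1046 ± 306 RPKM and from 0.44 ± 0.208 to 802 ± 358 RPKM. Of 8 PPAR receptors and cofactors, 3 were called higher (Ppargc1a, Rxra and Pparg) and 1 lower, Ppard, which went from 17.6 ± 1.45 to 3.53 ± 1.61 RPKM. Ppara itself, looked up after its values were known, had 16.2 ± 3.83 RPKM in Con and 20.9 ± 6.09 RPKM in STZ (adjusted p = 0.265). After median-ratio scaling, 8 other peroxisomal lipid genes were higher and 5 lower, 1 peroxin was higher, 13 mitochondrial genes and 10 PPARA targets were higher, 1 target was lower, and 1 receptor or cofactor was higher and 2 lower. The counts over all genes under that scaling are those given above.

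**Figure D3:**
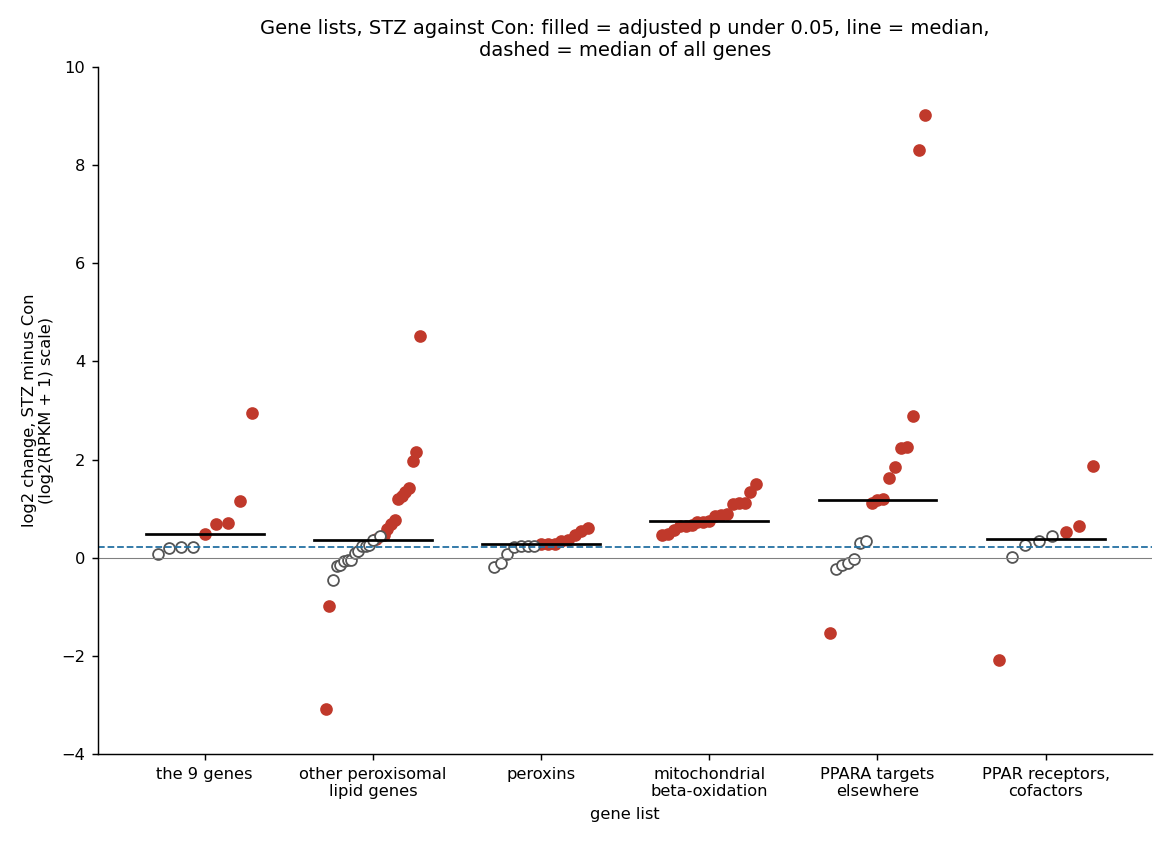
Log2 change, STZ minus Con, on the log2(RPKM + 1) scale (vertical axis) for every tested gene of 6 lists (horizontal axis), filled where the adjusted p was under 0.05, with the median of each list as a line and that of all genes (0.213) dashed. In the values as deposited, all 17 mitochondrial genes and the 9 genes lie above 0, while the other peroxisomal lipid genes and the peroxins run to both sides of it.

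Both transplant groups had had STZ, and their comparison with Con asked what remained of its effect. A10-FMT had 3 genes called higher than Con, Acaa1a (0.67 ± 0.18, adjusted p = 0.0286), Hsd17b4 (0.44 ± 0.11, adjusted p = 0.0252) and Abcd2 (1.52 ± 0.43, adjusted p = 0.0325). Of all genes, 15.9% were called higher. Con-FMT had 5 genes called higher, Ehhadh (0.65 ± 0.20, adjusted p = 0.0443), Acaa1a (0.76 ± 0.18, adjusted p = 0.0182), Hsd17b4 (0.45 ± 0.11, adjusted p = 0.022), Abcd2 (1.43 ± 0.43, adjusted p = 0.0396) and Crot (0.74 ± 0.20, adjusted p = 0.0298), against 17.5% of all genes. None of the 9 was called lower in either group. In A10-FMT, 7 of the 9 genes did not overlap with Con (48.9% of all genes), and in Con-FMT 5 (45.9% of all genes). Both comparisons, like that of STZ, use the same Con mice.

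By mouse, Ehhadh had 78.57, 95.61 and 99.25 RPKM in A10-FMT and 119.33, 71.86 and 90.85 RPKM in Con-FMT. Every one of these 6 values was above the Con range of 45.13 to 71.59 RPKM, though Con-FMT mouse 2 was only just above it, and A10-FMT missed the threshold (0.63 ± 0.20, adjusted p = 0.0508). Acaa1a had 117.59, 146.78 and 116.5 RPKM in A10-FMT and 164.29, 119.27 and 123.6 RPKM in Con-FMT, against 68.88 to 90.57 RPKM in Con. Abcd2 had 3.24, 2.21 and 2.87 RPKM in A10-FMT and 3.96, 1.75 and 2.17 RPKM in Con-FMT, all above Con and below STZ mice 1 and 2. Hsd17b4 had 157.92, 164.4 and 157.5 RPKM in A10-FMT and 179.37, 151.45 and 154.84 RPKM in Con-FMT, all above the 3 Con mice. Ech1, called in STZ, was not called in A10-FMT (0.58 ± 0.22, adjusted p = 0.0912) or Con-FMT (0.55 ± 0.22, adjusted p = 0.104).

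In A10-FMT against Con, the other lists gave 10 higher of 27 other peroxisomal lipid genes, 8 of 15 peroxins, 13 of 17 mitochondrial genes and 8 of 17 PPARA targets. In Con-FMT these counts were 13, 8, 15 and 10. No gene of these 4 lists was called lower in either group, and of 8 receptors and cofactors 2 were higher and 1 lower in both. Stellate cell markers summed to 96.1 to 106 RPKM in A10-FMT and 68.5 to 138 RPKM in Con-FMT, and erythroid markers to 1378 to 2789 RPKM and 2332 to 8835 RPKM. Exocrine pancreas markers, 31.4 to 40.7 RPKM in Con, summed to 8.89 to 9.54 RPKM in A10-FMT and 5.64 to 13.97 RPKM in Con-FMT, and lymphocyte markers to 1.88 to 2.2 RPKM and 2.19 to 2.77 RPKM. In each transplant group, 2 hepatocyte markers were called higher, and 1 cholangiocyte and 1 exocrine pancreas marker lower, and the part of these cell types was not tested. Of all genes, 15.9% were called higher and 2.47% lower in A10-FMT, and 17.5% and 1.89% in Con-FMT.

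The calls against Con moved when single mice were left out, as did those over all genes. Without any 1 mouse of A10-FMT, or without Con mouse 1 or 3, 0 genes were called in A10-FMT, and 547 to 1153 of all genes in place of 1953. In Con-FMT, 0 were called without Con mouse 1, Con mouse 3 or Con-FMT mouse 1, 1 without Con-FMT mouse 3 and 3 without Con mouse 2, while 603 to 1520 of all genes were called in these fits in place of 2059. The log2 changes of the called genes stayed above 0 in each of these fits. After median-ratio scaling 1 gene was called in A10-FMT (Abcd2) and 0 in Con-FMT, while of all genes 665 were called higher and 498 lower in A10-FMT in place of 1691 and 262, and 519 and 353 in Con-FMT in place of 1859 and 200.

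A second question was whether the transplants moved the genes away from untreated STZ. None of the 9 was called in A10-FMT against STZ (0.226% of all genes were) or in Con-FMT against STZ (0.00943% of all genes). At an unadjusted p under 0.05, limma gave 2 genes in A10-FMT (Ehhadh and Abcd2) and 3 in Con-FMT (Ehhadh, Abcd2 and Crot), against 20.9% and 20.1% of all genes. Ehhadh differed by -0.53 ± 0.20 in A10-FMT (adjusted p = 0.179) and -0.51 ± 0.20 in Con-FMT (adjusted p = 0.192), with means of 91.1 ± 11.04 and 94.0 ± 23.9 RPKM against 132 ± 13.6 RPKM in STZ. Its A10-FMT mice did not overlap with STZ, the only such gene (21.5% of all genes had no overlap), while in Con-FMT 0 of the 9 were without overlap (17.7% of all genes).

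Abcd2 differed from STZ by -1.42 ± 0.43 in A10-FMT (adjusted p = 0.117) and -1.51 ± 0.43 in Con-FMT (adjusted p = 0.109). STZ mouse 3, at 3.22 RPKM, lay within the range of both transplant groups. Without that mouse, Abcd2 was called lower in both comparisons and Crot higher in Con-FMT, and the calls over all genes went from 24 to 1343 in A10-FMT and from 1 to 1636 in Con-FMT. Crot was higher in Con-FMT than in STZ by 0.51 ± 0.20 (adjusted p = 0.192), at 295.93, 248.84 and 234.17 RPKM, and in A10-FMT by 0.15 ± 0.20 (adjusted p = 0.701), at 222.23, 231.33 and 159.03 RPKM. Pex11a differed by -0.17 ± 0.14 and -0.19 ± 0.14 (adjusted p = 0.51 and 0.461). Both comparisons share the STZ mice. No gene of the other lists was called in either.

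Between A10-FMT and Con-FMT, none of the 9 genes and 0% of all genes were called, and limma gave 0 of the 9 and 303 of all genes at an unadjusted p under 0.05. Crot was the 1 gene whose mice did not overlap (8.92% of all genes), with all 3 Con-FMT mice above the A10-FMT mice and a difference of -0.36 ± 0.20 (adjusted p = 0.999). For the other 8 genes the difference ran from -0.09 to 0.14.

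**Figure D4:**
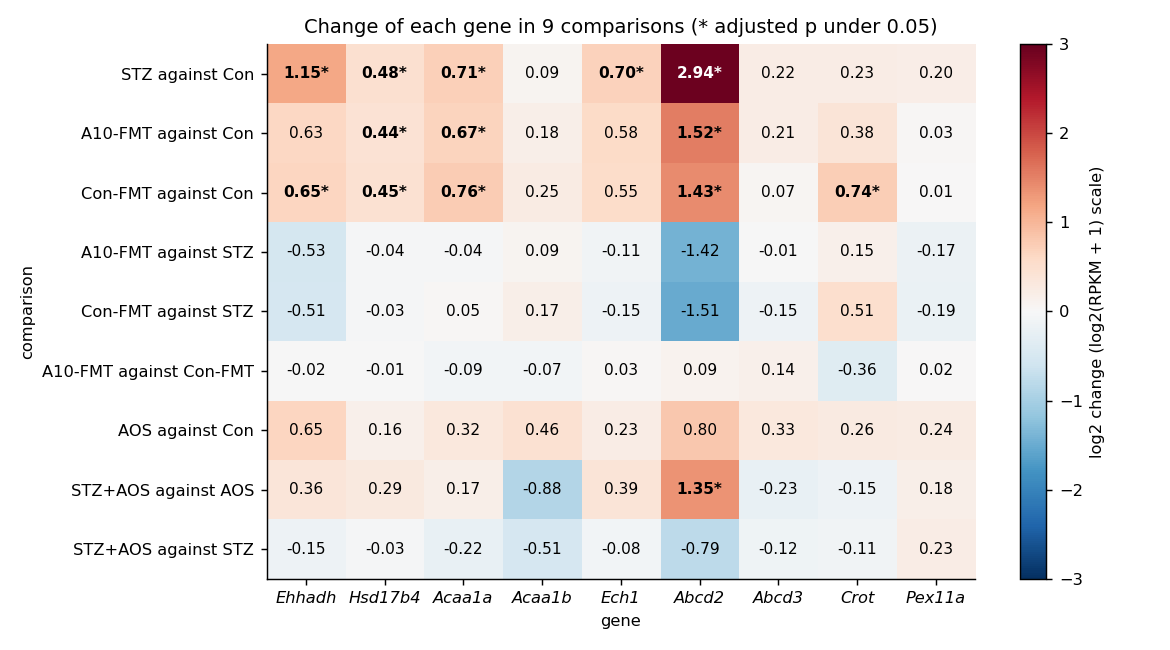
Log2 change of each gene (horizontal axis) in 9 comparisons (vertical axis) on the log2(RPKM + 1) scale, with colour and number giving the change and an asterisk an adjusted p under 0.05. Abcd2, Acaa1a and Hsd17b4 carry an asterisk in the 3 comparisons of an STZ-treated group with Con. Abcd2 alone carries one in STZ+AOS against AOS, and no gene carries one in the comparisons with STZ.

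AOS alone left no gene called. All 9 changes against Con were above 0, from 0.16 (Hsd17b4) to 0.80 (Abcd2), with a median of 0.316 against 0.0641 for all genes, while 0.00924% of all 10822 genes were called. The 9 signs are not independent, since they share the Con mice, of which mouse 1 was lowest in all 9 genes. Ehhadh was the 1 gene of the 9 at an unadjusted p under 0.05 in limma (7.22% of all genes were). It had 99.33, 87.57 and 89.73 RPKM in AOS, all above the Con range (0.65 ± 0.19, adjusted p = 0.524). Abcd2 had 0.96, 1.62 and 1.28 RPKM in AOS, and Abcd3 134.75, 134.8 and 130.91 RPKM. With Ehhadh, Acaa1a and Hsd17b4 these made 5 genes without overlap (24.4% of all genes). The 9 changes stayed above 0 under every alternative in which they were fitted (Abcd2 did not pass the filter with the AOS and Con libraries alone), those of Ech1 and Hsd17b4 falling as low as 0.02 and 0.04.

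STZ on top of AOS was read by setting STZ+AOS against AOS. Here 1 gene was called higher, Abcd2 (1.35 ± 0.45, adjusted p = 0.0287), at 4.71, 9.61 and 2.19 RPKM, while 31.8% of all genes were called higher and 6.11% lower. Ehhadh had 106.09, 148.47 and 104.46 RPKM in STZ+AOS, all above AOS (0.36 ± 0.19, adjusted p = 0.159). Hsd17b4 had 153.02, 191.54 and 143.46 RPKM (0.29 ± 0.12, adjusted p = 0.0693) and Ech1 245.49, 363.66 and 257.97 RPKM (0.39 ± 0.22, adjusted p = 0.161), also without overlap. Acaa1b went the other way, at 140.75, 302.9 and 277.65 RPKM in STZ+AOS and 513.44, 372.3 and 390.49 RPKM in AOS, again without overlap (-0.88 ± 0.34, adjusted p = 0.0544). Abcd3 (-0.23 ± 0.16, adjusted p = 0.252) and Crot (-0.15 ± 0.20, adjusted p = 0.585) were below 0 as well, with overlap. In all, 5 of the 9 genes had no overlap, as did 49.1% of all genes. Stellate cell markers summed to 77.9 to 87.3 RPKM in AOS and 129 to 151 RPKM in STZ+AOS, Kupffer cell markers to 66.7 to 93.7 RPKM and 95.3 to 129 RPKM, and exocrine pancreas markers to 30.6 to 49.1 RPKM and 3.19 to 61.5 RPKM. Erythroid markers summed to 2112 to 2722 RPKM in AOS and 280 to 1502 RPKM in STZ+AOS, lymphocyte markers to 3.44 to 3.64 RPKM and 2.18 to 2.70 RPKM, and endothelial markers to 35.6 to 44.6 RPKM and 44.3 to 61.6 RPKM. Of the hepatocyte markers 2 were called higher and 2 lower, 1 marker each of Kupffer, endothelial and stellate cells higher, and 1 each of erythroid cells and exocrine pancreas lower, and their part was not tested. After median-ratio scaling, Abcd2 was no longer called (adjusted p = 0.059; 0.0102 to 0.126 over 12 alternatives), and Acaa1b and Abcd3 were called lower, while all genes had 1313 higher and 1333 lower in place of 3441 and 661. Without STZ+AOS mouse 1, or any 1 AOS mouse, 0 genes were called. Without STZ+AOS mouse 2 the 1 call was Acaa1b, and without STZ+AOS mouse 3 there were 2, Hsd17b4 and Abcd2. These fits called 2767 to 4045 of all genes in place of 4102, and the change of Abcd2 ran from 0.91 to 1.803 over the alternatives. The share of Acaa1b in the thiolase pair was 81.0% ± 1.64 in AOS and 66.9% ± 8.004 in STZ+AOS.

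**Figure D5:**
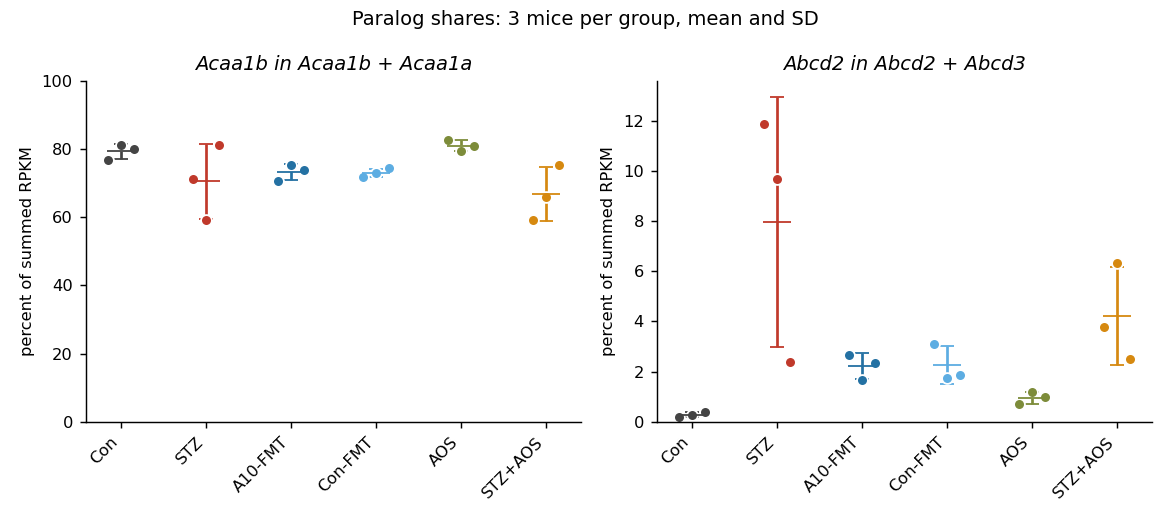
Share of Acaa1b in the summed RPKM of Acaa1b and Acaa1a (left) and of Abcd2 in that of Abcd2 and Abcd3 (right), in percent (vertical axes, from 0), with a point per mouse, the mean as a line and the SD as a bar for the 6 groups. The Acaa1b share was 79.4% in Con, 81.0% in AOS and 66.9% to 73.3% in the 4 groups given STZ, with 1 STZ mouse at 81.2%.

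In the other lists, STZ+AOS against AOS gave 12 higher and 4 lower of 29 other peroxisomal lipid genes, 3 higher and 1 lower of 15 peroxins, 9 higher of 17 mitochondrial genes, 10 higher and 4 lower of 18 PPARA targets, and 3 higher and 1 lower of 8 receptors and cofactors. Over all genes the shares were 31.8% higher and 6.11% lower. Direct AOS in STZ mice (STZ+AOS against STZ) gave 0 calls among the 9 genes and 0% among all genes, with 0 of the 9 genes and 657 of all genes at an unadjusted p under 0.05. None of the 9 was without overlap there (5.13% of all genes). Abcd2 differed by -0.79 ± 0.45 (adjusted p = 0.811), Acaa1b by -0.51 ± 0.34 (adjusted p = 0.811), Ehhadh by -0.15 ± 0.19 (adjusted p = 0.891) and Pex11a by 0.23 ± 0.17 (adjusted p = 0.813). The effect of STZ with AOS minus that without AOS was below 0 for all 9 genes, where the median of all genes was -0.00899. It was called for none of the 9, and for 0% of all genes. Ehhadh (-0.80 ± 0.28) and Abcd2 (-1.59 ± 0.64) were under 0.05 before adjustment in limma, like 5.4% of all genes, and their adjusted p were both 0.856. Acaa1b had -0.97 ± 0.49. This difference uses the mice of the preceding comparisons again. Con mouse 1, the lowest of its group in all 9 genes, is among them, so the 9 signs are not independent.

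The order of the mice within a group was often the same across the genes. Con mouse 1 was lowest of its group in all 9 genes, Con-FMT mouse 1 highest in 8 and STZ+AOS mouse 2 highest in 8. With group means removed, the closest pairs over the 18 libraries were Ehhadh and Ech1 (Pearson r = 0.908) and Acaa1a and Ech1 (r = 0.857), and Pex11a and Abcd2 had r = -0.719. These values share libraries and their scaling and are a description. Outside the 9 genes, genes whose log2 levels followed the mean of the 9 closely over the 18 libraries were Suclg1 (r = 0.949), Pcca (0.949), Ube3b (0.948), Suclg2 (0.947) and Hadha (0.943). Summed over the 9 genes, the level was 1048 ± 182 RPKM in Con, 1441 ± 249 in STZ, 1366 ± 133 in A10-FMT, 1434 ± 217 in Con-FMT, 1320 ± 90.4 in AOS and 1254 ± 267 in STZ+AOS. As a share of the library sum, the 9 genes took 0.136% ± 0.0284 in Con, 0.219% ± 0.0316 in STZ, 0.198% ± 0.0134 in A10-FMT, 0.208% ± 0.0369 in Con-FMT, 0.180% ± 0.0160 in AOS and 0.197% ± 0.0406 in STZ+AOS, so AOS was above STZ+AOS in the sum and below it in the share.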

How the data were processed

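Liver RNA of 18 mice was sequenced, 3 in each of 6 groups. According to the study, reads were mapped with SOAPaligner to the reference genes, while the submitters' processing notes name Bowtie 0.12.2 and the mm10 build. Which of the mappers made the deposited table is not settled, so how reads shared by Acaa1a and Acaa1b were split is not known. The authors deposited 1 RPKM value for each gene and library, already divided by transcript length and mapped reads. Reads per library cannot be read from RPKM. The steps between low values of 80 genes gave relative depths of 0.953 to 1.085. The estimates were 1.041 to 1.085 for Con libraries and 0.953 to 0.987 for STZ libraries, without overlap. They rest on rounded low values, and the same estimate of 0.953 recurred in STZ, STZ+AOS and Con-FMT libraries. Whether depth differed between Con and STZ is therefore not settled, and its part was not tested.

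The 9 genes and all gene lists were chosen with earlier results of these data known. A gene entered the fit when 3 or more libraries reached 1 RPKM, and limma (version 3.58.1, under R 4.3.3) was run on log2(RPKM + 1) with a mean-variance trend. Comparisons among the 4 groups without AOS dosing used those 12 libraries (10602 genes), and comparisons with AOS or STZ+AOS used all 18 (10822 genes). P-values were two-sided, with Benjamini-Hochberg adjustment across every gene fitted, and a gene was called under 0.05. Fold changes on this scale understate those of low genes. The labels number the samples of a group 1 to 3, which were taken as separate mice. If they are not, p-values measure only the spread between these samples. The named genes were the 9 genes, at most 4 called genes per list and comparison with the smallest adjusted p, and the 6 genes most like the mean of the 9, though some results that the rule gives are not reported here. The lists were other peroxisomal lipid genes, peroxins, mitochondrial beta-oxidation, PPARA targets outside the peroxisome, PPAR receptors and cofactors, and markers of 9 cell types. The procedure was tested on simulated data. Alternatives were median-ratio scaling, quantile normalization, a pseudocount of 0.1, no filter, only the groups compared, all 6 groups, a replicate block and leaving out each mouse. The authors' own gene calls (DEGseq) were not used. Gene positions came from GENCODE M21 (GRCm38), coding and 50-base comparisons from its transcripts, and promoters from RefSeq (7 of the 9 genes matched).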

Additional observations from a re-analysis of the deposited data

How the results depend on the processing

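The counts of called genes moved with the scaling, the filter and single mice. STZ against Con kept 4 or 5 of its 5 calls under quantile normalization, a pseudocount of 0.1, no filter, only the groups compared, all 6 groups and without any 1 mouse (4 to 5), but 2 under median-ratio scaling. A10-FMT against Con went from 3 calls to 1 under median-ratio scaling, 1 under quantile normalization, 1 without the filter and 5 with only the groups compared, and Con-FMT against Con from 5 to 0 under either scaling, 2 without the filter and 3 with the replicate block. STZ+AOS against AOS went from 1 to 2 under median-ratio scaling (Acaa1b and Abcd3, both lower) and to 0 without the filter. Under quantile normalization it kept 1 call, but that was Acaa1b, lower, in place of Abcd2. Leaving out single mice gave 0 to 3 calls for A10-FMT against Con and 0 to 5 for Con-FMT against Con, 0 to 1 for A10-FMT against STZ and 0 to 2 for Con-FMT against STZ, and 0 to 2 for STZ+AOS against AOS. The calls lost without single mice came with fewer calls over all genes; the cause of the others was not tested. The other 4 comparisons (between the transplant groups, AOS alone, direct AOS in STZ mice and the difference of STZ effects) gave 0 calls among the 9 genes under every alternative run.

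Signs of uncalled changes turned in STZ against Con. Under median-ratio scaling Acaa1b was -0.18, Pex11a -0.0586, Abcd3 -0.0464 and Crot -0.0441, and under quantile normalization Acaa1b was -0.18, Pex11a -0.077 and Abcd3 -0.0319. Without single mice Acaa1b ran from -0.18 to 0.52 and Crot from -0.00688 to 0.39, and Crot in A10-FMT against STZ from -0.0107 to 0.38. Outside the leave-one-out fits, the 51 single-gene changes given here with their alternatives kept their direction and side of the threshold in 289 fits, lost the call in 33, gained one in 6 and turned sign in 7. Of the other 39 changes of the 9 genes, none of them called, 29 turned sign under at least 1 alternative and 1 was called under any. Whether the mouse numbers pair the samples was not settled. Deviations of same-numbered mice correlated between -0.249 and 0.472 (median 0.0315, over 0.1 in 16 of 45 pairs). Those of differently numbered mice ran from -0.534 to 0.449 (median -0.0127, over 0.1 in 16 of 90 pairs). Values over 0.1 were thus more frequent among same-numbered mice, and the check cannot exclude a pairing. With the replicate block STZ against Con had 4 genes called, 2 were called in A10-FMT against Con, 3 in Con-FMT against Con and 1 in STZ+AOS against AOS. RPKM give no read counts, so the sampling error of low values such as Abcd2 in Con is unknown.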
